A study of Drosophila melanogaster with 3 samples.

Results

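The 538 regions described here are caup-eGFP binding peaks whose summits lay deep inside the introns of long genes. They were taken from the 6056 peaks of the optimal set by position alone: a summit had to lie more than 1000 bp from every annotated transcription start site (TSS), inside a gene body, in no exon, and in a protein-coding gene spanning 50 kb or more. They made up 8.88% of the optimal set (Wilson 95% interval 8.19 to 9.63). Summits within 1 kb of a TSS numbered 3703 and summits in introns of shorter protein-coding genes 1150, and these are the classes used for comparison. The peaks come from chromatin immunoprecipitation and sequencing of whole fruit fly embryos (Drosophila melanogaster, males and females pooled) collected at 0 to 24 h, as 3 biological replicates of 1 group. All embryos came from a transgenic line that stably carries caup with GFP at its C terminus, and an antibody against GFP pulled the fusion down from sonicated chromatin of 200 to 800 bp. Whole embryos mix all cell types, so which cells carried a peak is unknown, and the lists hold no read counts, so library depth is unknown too. Intervals on shares and densities below cover counting error only. Tests on peaks or their windows count each peak as a unit, though many members share a host gene and some lie close together. Their p-values describe this peak set, not the spread between embryos.

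Caup is a homeodomain protein of the Iroquois family, with ara and mirr, and these proteins belong to the TALE class of homeodomain factors. Iroquois proteins are known from the prepattern of sensory bristles and from dorsal identity in the eye and notum, and their binding sequence in vitro is the palindrome written ACANNTGT. Long introns in Drosophila are often the seat of enhancers, and genes of developmental control are prominent among the long genes. The 3 Iroquois genes themselves were too short to hold a member, with spans of 15.3 kb at ara (FBgn0015904), 12.2 kb at caup (FBgn0015919) and 16.6 kb at mirr (FBgn0014343). The optimal set placed 2 summits in ara, 1 in caup and 2 in mirr.

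The sequences of the strongest members show what the peaks hold at their centres. The following stretches, on the plus strand of dm6 with 100 bp to each side of the summit, belong to 5 of the 6 members of highest signal value, the authors' enrichment statistic. Capitals mark matches, on either strand and with overlaps joined, to the palindrome ACANNTGT or to 6 of the 6-base words that were more frequent at members than in their flanks. Of these AGTGTA was within 100 bp of 14.6% of all 6056 optimal summits, ACACTG of 18.3%, CACTGA of 14.5%, ACTGAG of 9.51%, AATATT of 26% and AAATAT of 45.8%, and the palindrome of 11.5%.
ush, chr2L:480956-481156: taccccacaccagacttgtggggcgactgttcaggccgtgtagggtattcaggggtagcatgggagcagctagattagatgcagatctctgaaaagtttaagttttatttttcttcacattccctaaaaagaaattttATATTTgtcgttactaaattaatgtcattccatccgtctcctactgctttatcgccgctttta
Tlk, chrX:3742113-3742313: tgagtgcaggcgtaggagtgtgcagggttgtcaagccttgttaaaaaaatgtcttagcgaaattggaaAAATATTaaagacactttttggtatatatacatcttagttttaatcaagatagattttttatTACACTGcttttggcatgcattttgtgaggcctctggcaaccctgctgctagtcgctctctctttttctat
Dys, chr3R:19499157-19499357: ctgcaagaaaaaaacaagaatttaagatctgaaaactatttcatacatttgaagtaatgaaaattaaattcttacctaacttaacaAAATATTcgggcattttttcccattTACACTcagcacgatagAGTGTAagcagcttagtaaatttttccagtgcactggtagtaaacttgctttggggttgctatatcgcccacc
Eip75B, chr3L:18019724-18019924: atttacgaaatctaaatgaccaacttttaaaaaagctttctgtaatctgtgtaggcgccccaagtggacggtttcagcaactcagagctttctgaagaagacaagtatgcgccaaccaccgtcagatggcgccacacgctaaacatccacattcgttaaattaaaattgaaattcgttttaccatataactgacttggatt
Hr4, chrX:1951815-1952015: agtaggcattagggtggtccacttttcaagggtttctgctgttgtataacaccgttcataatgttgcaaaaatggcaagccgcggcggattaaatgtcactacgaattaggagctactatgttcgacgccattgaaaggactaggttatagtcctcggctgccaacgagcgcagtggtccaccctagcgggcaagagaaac
The summits in ush, Eip75B and Hr4 held 1, 0 and 0 of these matches, and those in Tlk and Dys held 4 each.

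The palindrome stood closest to the summit in the following members, whose signal values were modest (240 in pum, which encodes a translational repressor, and 347 in Glut1, a glucose transporter gene). Capitals mark ACANNTGT, whose centre lay 0.50 bp and 1.5 bp from the summit.
pum, chr3R:9127284-9127484: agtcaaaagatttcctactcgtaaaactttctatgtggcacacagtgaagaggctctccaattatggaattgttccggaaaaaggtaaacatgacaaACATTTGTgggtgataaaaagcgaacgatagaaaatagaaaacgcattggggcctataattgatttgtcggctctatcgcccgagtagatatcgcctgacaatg
Glut1, chr3L:917343-917543: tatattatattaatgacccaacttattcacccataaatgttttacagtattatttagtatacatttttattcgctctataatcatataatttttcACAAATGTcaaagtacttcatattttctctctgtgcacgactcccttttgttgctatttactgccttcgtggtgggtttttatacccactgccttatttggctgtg

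The last set shows a longer word that was picked from the 6-base words after their values were seen, CACTGAGA, in capitals on either strand. It is shown for the 3 members with a match on both sides of the summit within 100 bp.
CG32264, chr3L:3802802-3803002: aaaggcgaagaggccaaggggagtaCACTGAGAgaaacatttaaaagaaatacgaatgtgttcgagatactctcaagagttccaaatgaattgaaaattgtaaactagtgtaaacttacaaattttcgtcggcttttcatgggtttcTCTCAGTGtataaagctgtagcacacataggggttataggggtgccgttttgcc
kirre, chrX:3025614-3025814: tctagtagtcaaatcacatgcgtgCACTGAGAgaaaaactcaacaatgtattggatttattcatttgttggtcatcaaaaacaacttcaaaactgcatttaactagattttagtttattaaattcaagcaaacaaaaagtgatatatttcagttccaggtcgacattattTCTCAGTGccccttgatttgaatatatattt
side-III, chr3R:5871502-5871702: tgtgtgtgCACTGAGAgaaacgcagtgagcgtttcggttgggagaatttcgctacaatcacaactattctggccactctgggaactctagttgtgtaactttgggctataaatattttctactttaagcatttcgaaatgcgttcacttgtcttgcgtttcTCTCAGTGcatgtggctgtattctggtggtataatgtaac
In each of the 3 the left-hand match read CACTGAGA on the plus strand and the right-hand match read TCTCAGTG, its reverse complement. CG32264 carried a signal value of 538, kirre, an adhesion gene of myoblast fusion, 298, and side-III 250.

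The members lay in 174 of the 307 protein-coding genes of 50 kb or more, so 56.7% of long genes were hosts (51.1 to 62.1). A gene held up to 14 members, with a median of 2.00 per host, and 55 hosts held 1 each. The 40 hosts with 5 or more held 273 members, 50.7% of all. The host with the most was sbb (FBgn0285917, a nuclear corepressor gene on 2R spanning 79.1 kb), with 14 members that all lay in 1 intron. The BMP-pathway zinc finger gene shn (58.3 kb) held 12, the ecdysone-induced nuclear receptor gene Eip75B (114 kb) 11, the GATA cofactor gene ush (64.3 kb) 10 and kirre (394 kb) 10. Snoo, a corepressor gene of the TGF-beta pathway, held 9. The ETS factor gene pnt, the Rap1 regulator gene RapGAP1, the AMP-activated kinase subunit gene SNF4Agamma and the TSC-22 family gene bun held 8 each. These 10 hosts held 98 members, or 18.2%. Per 100 kb of intron sequence that could hold a member they differed widely: shn had 31, sbb 26.4 and ush 21.0, whereas kirre had 3.16.

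**Figure D1:**
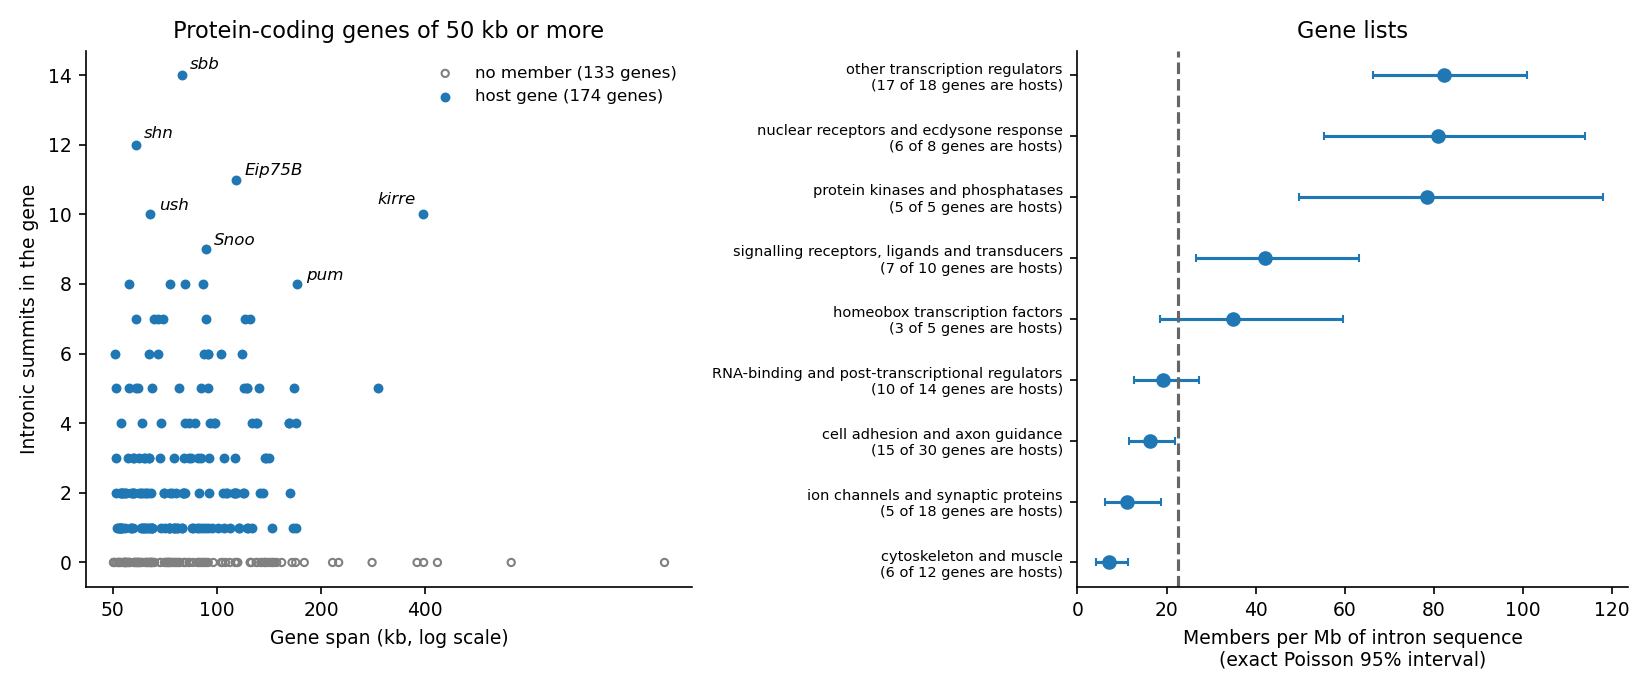
Left, number of members (intronic summits) in each of the 307 protein-coding genes of 50 kb or more against gene span in kb on a log scale; 174 genes hold at least 1. Right, members per Mb of intron sequence in the long genes of 9 gene lists, with exact Poisson 95% intervals; the dashed line is the value over all long genes, 22.5, and the transcription regulators stand at 82.3. Cytoskeleton and muscle genes are drawn at 7.06, which is 36.9 without the gene Myo81F.

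Within a host the members were mostly well apart. The 364 gaps between neighbouring members of 1 host had a median of 6.95 kb (quartiles 2.11 and 18 kb). Of these gaps 49 were under 1 kb and 20 under 250 bp, the smallest being 199 bp. Counting all optimal peaks as neighbours, 102 members (19.0%) had another summit within 1 kb, while 161 (29.9%) had none within 10 kb. In ush the 10 members fell in 2 introns over 41.1 kb, with the 3 strongest near the upstream end. In kirre the 10 members were spread over 310 kb and 3 introns. In Eip75B they covered 71.3 kb of 3 introns.

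**Figure D2:**
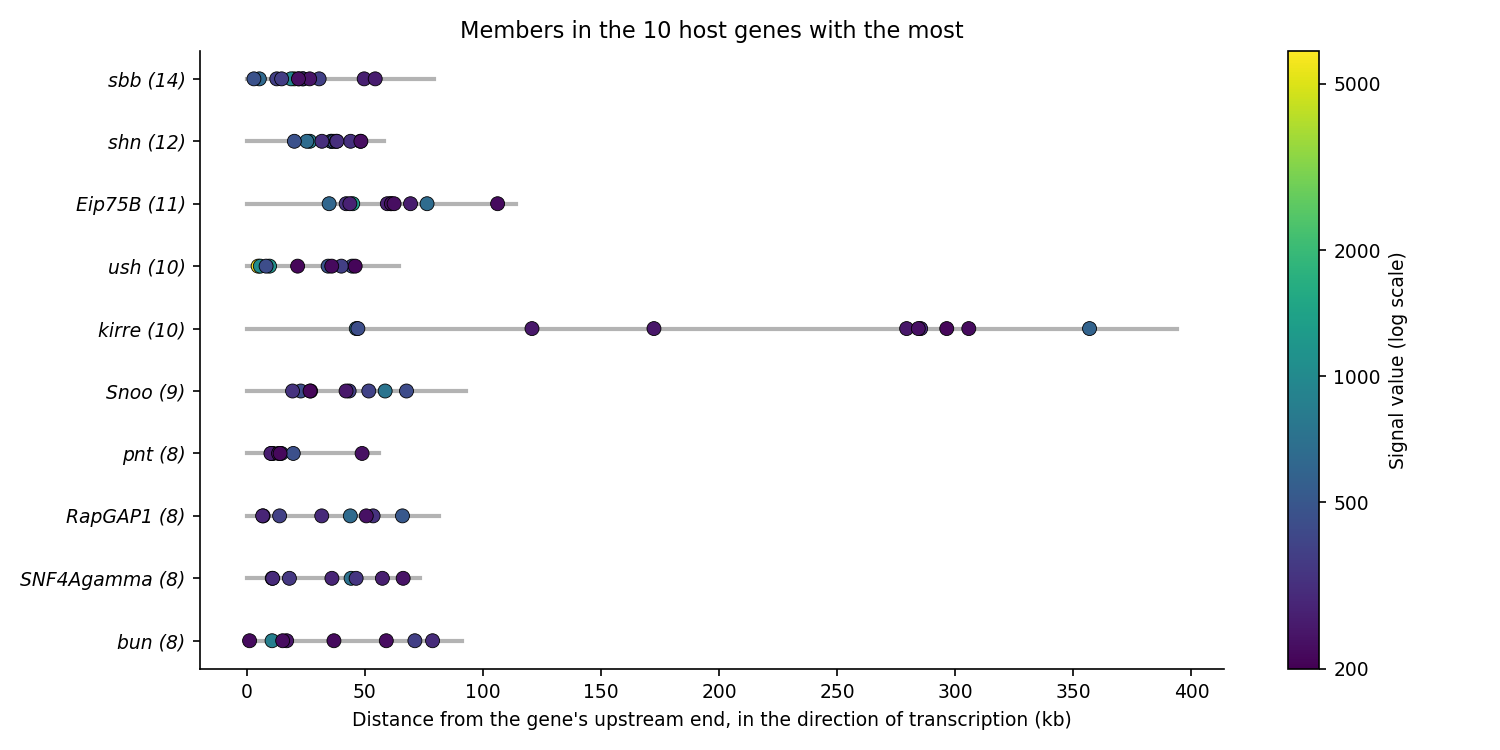
Position of each member along the 10 host genes with the most members, as distance in kb from the gene's upstream end in the direction of transcription; grey lines are gene spans, numbers in parentheses are members per gene, and colour gives the signal value on a log scale. The strongest member, at 5948, lies near the upstream end of ush, and the members of kirre are spread over 310 kb.

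Hosts differed in kind. In 9 lists of genes, which were chosen with earlier results of these data known, 120 long genes were found, of which 74 were hosts with 283 members. Among transcription regulators outside the homeobox and nuclear receptor families, 17 of 18 long genes were hosts (94.4%, 74.2 to 99.0), against 56.7% of all long genes. They held 91 members, 82.3 per Mb of intron sequence (exact Poisson 95% interval 66.3 to 101), against 22.5 per Mb over all long genes. The highest signal values in this list were 5948 in ush, 3458 in sbb, 1053 in the Notch coactivator gene mam and 870 in the zinc finger gene mamo. Nuclear receptors and ecdysone response genes followed, with 6 of 8 as hosts and 32 members (81.0 per Mb, 55.4 to 114): Eip75B reached 1282, Hr4 1261, the ecdysone receptor gene EcR 881 and ftz-f1 661. Protein kinases and phosphatases had 5 of 5 as hosts (56.6 to 100% by the interval) and 78.5 members per Mb (49.8 to 118), led by the chromatin-linked kinase gene Tlk (3373), SNF4Agamma (722), the death-associated kinase gene Drak (572) and the tyrosine phosphatase gene Ptp61F (494).

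The other 6 lists had fewer members per Mb. Signalling receptors, ligands and transducers had 7 of 10 long genes as hosts and 42.2 members per Mb (26.7 to 63.3), with the FGF ligand gene ths (759), the Wnt and polarity receptor gene fz (559), the glypican gene dally (520) and the guidance ligand gene sli (483) highest. Homeobox genes had 3 of 5 as hosts and 34.9 per Mb (18.6 to 59.7): the TALE gene hth held 5 members (up to 656), the Hox gene Antp 6 (up to 561) and the cut-class gene ct 2 (up to 356). RNA-binding genes had 10 of 14 and 19.1 per Mb (12.8 to 27.4), with shep (700), Rbfox1 (671), mbl (572) and cpo (496) highest. Genes of cell adhesion and axon guidance had 15 of 30 and 16.2 per Mb (11.6 to 21.9), with the guidance cue gene NetB (801), kirre (764), haf (594) and the leucine-rich repeat gene caps (588) highest. Ion channel and synaptic genes had 5 of 18 and 11.2 per Mb (6.10 to 18.7), with the cAMP phosphodiesterase gene dnc (675), the potassium channel gene Shab (340), the calcium channel gene Ca-alpha1T (325) and the potassium channel gene Sh (284). Cytoskeleton and muscle genes had 6 of 12 and 7.06 per Mb (4.11 to 11.3), a value set by 1 gene: the unconventional myosin gene Myo81F, which spans 1966 kb, held 0 members in 1.95 Mb, and without it the list stood at 36.9 per Mb (21.5 to 59.1). In this list the dystrophin gene Dys held a member of 1552, the supervillin gene Svil one of 720, the spectraplakin gene shot one of 572 and the Z-disc gene Zasp52 one of 534. In none of the other 8 lists did leaving out all genes of 200 kb or more move the density by over 1.5 times. These are descriptions without a test, and the lists differ in how long their genes are.

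Hosts usually also carried the protein at their own promoters. Of the 174 hosts, 116 (66.7%, 59.4 to 73.2) had an optimal summit within 1 kb of a TSS of their own, against 28 of the 133 long genes without a member (21.1%, 15 to 28.7) and 46.9% of all long genes (Fisher's exact test, two-sided, p = 1.23e-15). The difference held among genes of 50 to 75 kb (63.4% against 21.9%, Fisher's exact test p = 1.81e-07), of 75 to 100 kb (73.3% against 20.8%, p = 3.83e-05) and of 100 kb or more (66.0% against 19.4%, p = 2.53e-05). Hosts had more TSSs, with a median of 3.00 against 2.00. Among genes with 1 or 2 TSSs the shares were 53.0% and 21.4% (Fisher's exact test p = 1.26e-05), and among those with 3 or 4 they were 78.2% and 20% (p = 1.22e-06). Seen from the genes, the 144 with a promoter summit held 408 members at 44.7 per Mb of intron sequence, and the 163 without one held 130 at 8.72 per Mb. Without the genes of 200 kb or more these densities were 45.3 and 11.9 per Mb (9.88 to 14.3). Some hosts with many members had no promoter summit: Hr4 held 7 members, Antp 6, fz 6 and hth 5 with 0 promoter summits. Of the 133, 6 had no intron sequence of their own that could hold a member, and 3, of which 2 are among those 6, contained members counted for a longer overlapping gene or one of equal span. Without these 7 genes the shares were 66.7% and 19.8% (25 of 126, Fisher's exact test p = 4.14e-16). Genes count as units here, so these p-values describe this peak set, not the spread between embryos.

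Introns of long genes held fewer summits per Mb than introns of shorter genes. Members stood at 22.5 per Mb (exact Poisson 95% interval 20.6 to 24.5) in the 23.9 Mb of sequence that could hold one, while summits in introns of shorter genes stood at 49.2 per Mb (46.4 to 52.1) over 23.4 Mb. The ratio was 0.458 (0.413 to 0.507). Which sequence could hold a summit was set by annotation alone, so it may include repeats where reads cannot be placed. The density changed along the range of spans: 32.7 per Mb in genes of 50 to 75 kb, 33.6 in those of 75 to 100 kb, 19.6 in those of 100 to 150 kb and 6.71 (4.87 to 9) in longer ones. The last value rests on the 10 genes of 200 kb or more, of which 2 were hosts with 15 members, and Myo81F alone held 8.11% of all sequence that could hold a member. Without these 10 genes, a choice made after seeing the data, the genes of 150 kb or more stood at 19.6 per Mb (13.1 to 28.1), all long genes at 27.8 per Mb and the ratio to shorter genes at 0.565 (0.510 to 0.627). By chromosome arm the density was 31.9 on 2L (26.1 to 38.5), 23.9 on X, 23.6 on 2R, 20 on 3L and 18 per Mb on 3R (14.9 to 21.6). The place of 3R rests on the same genes, since it stood at 25.5 without Myo81F and at 30.1 (24.9 to 36.0) without all genes of 200 kb or more, which left the 5 large arms between 23.5 and 31.9. The small chromosome 4 held 0 members in 0.0223 Mb, too little sequence to set a limit under 165 per Mb.

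The members were denser near start sites even beyond the 1000 bp that the rule kept clear. From 52.4 per Mb at 1000 to 2000 bp from the nearest TSS (42.1 to 64.4), the density was 38.9 at 2000 to 5000 bp, 24.4 at 5000 to 10000 bp and 12.4 farther out (10.6 to 14.5). Without the genes of 200 kb or more these were 53.9, 40.3, 25.4 and 18.1 per Mb. The median distance was 5208 bp (quartiles 2563 and 11728) and the greatest 49822 bp. The nearest TSS belonged to the host for 334 members (62.1%) and to another gene for the rest. The member of highest signal value lay 4836 bp from the nearest TSS of ush and 1368 bp from that of cbt.

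By intron order, introns 1 and 2 were the fullest. Numbered in the host transcript, intron 1 held 115 members (21.4%, 18.1 to 25) in 16.2% of the eligible sequence, and intron 2 held 219 (40.7%, 36.6 to 44.9) in 26.7%. That gave 29.5 per Mb (24.4 to 35.4) and 34.1 per Mb (29.7 to 38.9), with intervals that overlap. Intron 3 held 79 (21.6 per Mb), intron 4 held 35 (16.2), intron 5 held 37 (24.7), and introns 6 or later 53 in 26.6% of the sequence (8.27 per Mb, 6.20 to 10.8). Without the genes of 200 kb or more introns 6 or later stood at 14.4 per Mb (10.6 to 19.0). The number depends on the transcript: counting a member when it lay in intron 1 of any transcript of its host gave 300 members (55.8%) in 31.4% of the sequence. By length, introns of 20 kb or more held 71.2% of members and 72.5% of the sequence. Introns under 5 kb held 16 members (9.03 per Mb, 5.16 to 14.7). The nearer end of the member's intron, in the host transcript used for numbering, lay at a median of 6304 bp. It was within 100 bp for 1 member. Splice sites of other transcripts and of other genes were not counted, so nearer ones may exist.

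**Figure D3:**
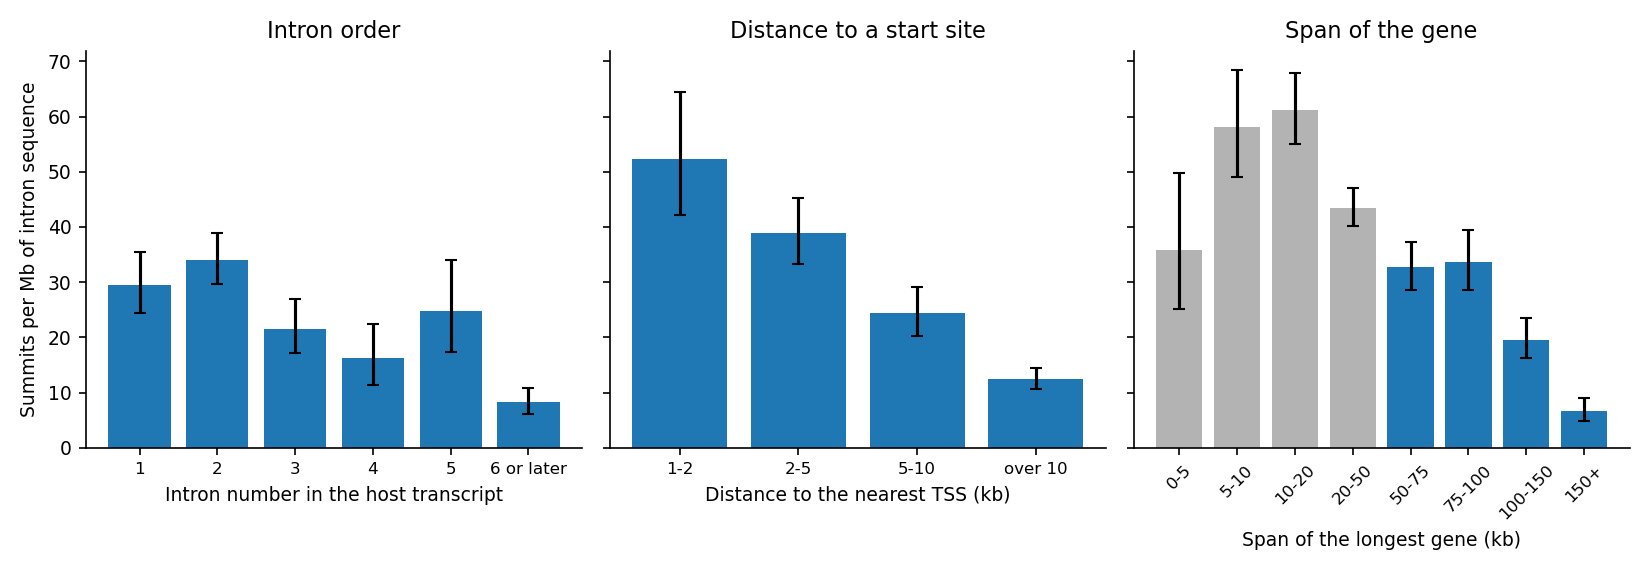
Summits per Mb of eligible intron sequence by intron number, by distance to the nearest TSS in kb and by span of the longest gene in kb; blue bars are members, grey bars summits in introns of shorter genes, and error bars exact Poisson 95% intervals. The density of members falls from 52.4 at 1 to 2 kb from a TSS to 12.4 beyond 10 kb. The bar of 6.71 in genes of 150 kb or more becomes 19.6 without the genes of 200 kb or more, as in genes of 100 to 150 kb.

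Most members were among the weaker peaks of the optimal set, and a few were among its strongest. The signal values ran from 209 to 5948 with a median of 300, below the 333 of the whole optimal set. Only 211 members (39.2%, 35.2 to 43.4) exceeded that overall median. The share was 46.4% in introns of shorter genes, a difference of -7.22 percentage points (-12.2 to -2.14, Fisher's exact test adjusted over 2 comparisons p = 0.00621). It was 54.4% at promoters (-15.1 points, -19.5 to -10.7, adjusted Fisher's exact p = 1.18e-10). Summits between genes were close to members, with 40.3% above that median and a median signal value of 294. In exons the share was 41.1%. These 2 classes were not tested. The comparison with shorter genes weakened when the summit had to lie over 2000 bp from every TSS (-5.73 points, Fisher's exact p = 0.0546). Of the 300 strongest optimal peaks 6 were members, and of the 300 weakest 33.

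The strongest member lay in intron 1 of ush on 2L, peak 480833 to 481342, with a signal value of 5948. It ranked 3 in the optimal set, and 3, 3 and 1 in the lists of replicates 1, 2 and 3. A member in intron 2 of sbb (peak 18336858 to 18337441 on 2R, 20112 bp from the nearest TSS) reached 3458 and ranked 20, 17 and 15. In Tlk, intron 2, a member reached 3373 and ranked 15, 19 and 19. These 3 held nearly the same rank in every replicate. The other 7 of the 10 strongest were lower by more than 2 times: Dys reached 1552 in intron 14, Eip75B 1282 in intron 3, Hr4 1261 in intron 2, osp 1185 in intron 1, and mam 1053 in intron 3. Further members in intron 1 of ush reached 1106 and 1041, so 3 of the 10 lay in that gene. Their ranks moved more between replicates, from 156 to 386 for Eip75B and from 309 to 560 for mam. All 10 lay in the top 6056 regions of every replicate.

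Over all members the replicates overlapped to different degrees. The summit lay in the top 6056 regions of replicate 1 for 72.3% of members (68.4 to 75.9), of replicate 2 for 80.5% (76.9 to 83.6) and of replicate 3 for 89% (86.1 to 91.4). All 3 top lists held 300 members, or 55.8% (51.5 to 59.9), against 62.7% of all optimal peaks, and 3 members were in none. The share was 60.7% for introns of shorter genes, and the difference of -4.93 points did not pass the test (interval -9.99 to 0.0959, adjusted Fisher's exact p = 0.0560). At promoters it was 65.5% (-9.70 points, -14.2 to -5.28, adjusted Fisher's exact p = 3.52e-05). Between genes the share was 55.2% and in exons 57.0%, close to that of members and not tested. Support follows signal. With the optimal set cut into 5 equal parts by signal value, 96.9% of members had it in the strongest part. The next parts stood at 95.7%, 88.9% and 30.4%, and the weakest at 2.38%. In introns of shorter genes the same parts gave 95.6%, 94.5%, 78.6%, 41.8% and 6.27%. At promoters they gave 97.2%, 92.1%, 78.6%, 35.9% and 7.63%. Members were thus higher than both classes in parts 2 and 3 and lower than both in parts 4 and 5. These differences within parts were not tested. The optimal set is the top of the list pooled from these replicates, so high support was built in. Leaving out replicate 3, for instance, 61.0% of members were in both other top lists, and leaving out replicate 1, 72.5%.

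**Figure D4:**
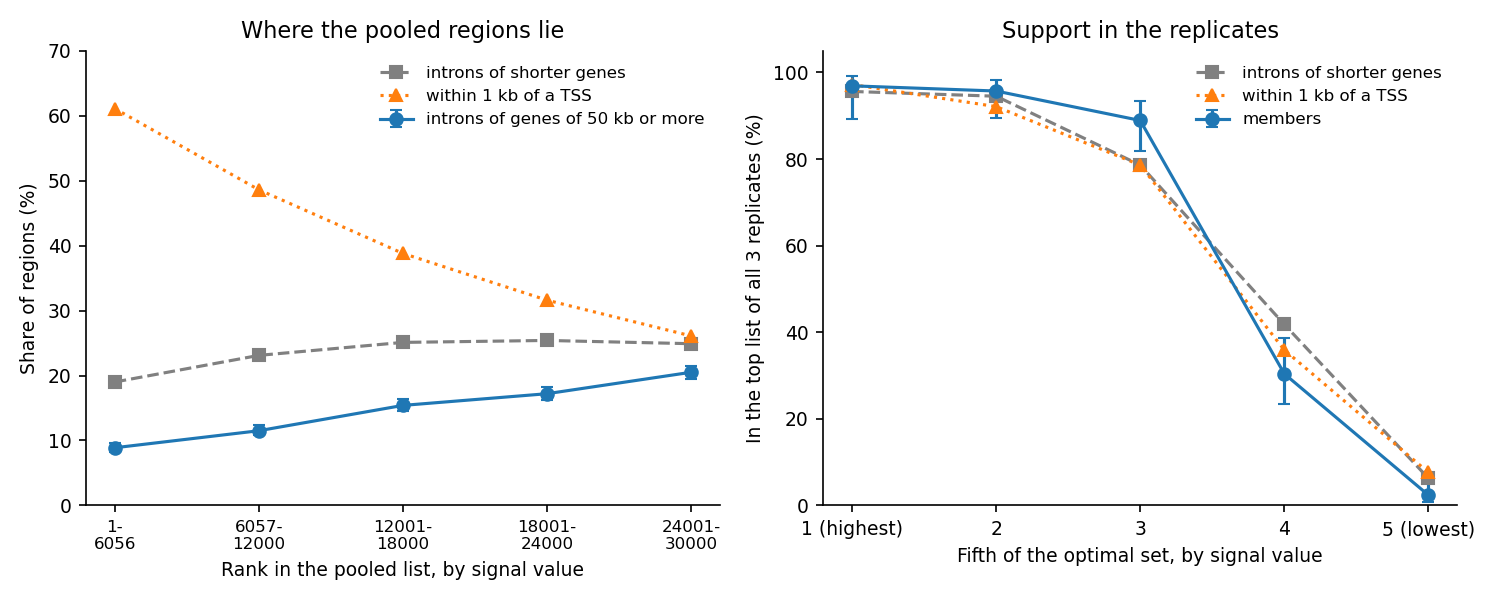
Left, share of regions in % that lie in introns of long genes, in introns of shorter genes or within 1 kb of a TSS, by rank in the pooled list of 30000 regions. Right, share of peaks in % whose summit lies in the top list of all 3 replicates, in 5 equal parts of the optimal set by signal value; error bars for members are Wilson 95% intervals. Long introns rise from 8.88% of the top 6056 regions to 20.5% of the weakest 6000.

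Below the optimal set, long introns took a growing share of the pooled regions. They held 8.88% of the top 6056, 11.5% of regions 6057 to 12000, 15.4% and 17.2% of the next 6000 each and 20.5% (19.5 to 21.5) of the last 6000. Introns of shorter genes also rose, from 19.0% of the top 6056 to 24.9% of the last 6000. Promoters fell over the same ranks from 61.1% to 26.1%. By its label the pooled list holds background as well as peaks. Positions at the edge of the rule were ordinary. Just inside 1000 bp from a TSS limit lay members in SNF4Agamma (1005 bp, signal value 265) and Glut1 (1008 bp, 230), and just outside it summits in sbb (989 bp, 531) and CG13954 (986 bp, 218). At the limit on span the nearest hosts were ftz-f1 (50703 bp, 661) and caps (50951 bp, 588), and the nearest genes left out NetA (49917 bp, 350) and Dyrk2 (49649 bp, 282). A further 174 intronic summits in long genes lay within 1000 bp of a TSS and so were not members.

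In sequence the members were rich in A and T at the summit. Within 100 bp of the summit the GC content had a median of 36.3% (quartiles 32.3 and 41.3), against 40.3% in flanking windows of the same width centred 500 bp away. The flank was higher in 339 members and the summit in 186 (exact two-sided sign test p = 2.38e-11). Summits in introns of shorter genes had nearly the same medians, 36.8% and 40.8%. Lower-case repeat sequence in the reference covered a median of 19.9% of the member windows, and over 50% of the window in 17 members.

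The Iroquois palindrome ACANNTGT was more frequent at members than beside them, but not past the threshold. It occurred in 80 members (14.9%, 12.1 to 18.1) and in 49 flanks (9.11%), a ratio of 1.63 (exact sign test adjusted over 14 motifs p = 0.0690). Over 10 alternatives the ratio ran from 1.39 to 2.58 and passed in 8, with adjusted exact sign test p from 0.00754 to 0.681. It was 2.12 among the members in all 3 top lists (p = 0.0128, adjusted exact sign test) and 2.58 with 1 member per host (p = 0.0473). The palindrome was found at 12.5% of summits in introns of shorter genes, whose flanks had 9.48%, and at 10.8% of promoters, whose flanks had 8.53%. Members and shorter genes did not differ past the threshold (ratio 1.19, adjusted Fisher's exact p = 0.669).

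Of the 14 motifs tested 0 passed against the flanks, and 3 had an unadjusted sign test p under 0.05: the palindrome, the TATA box TATAAA and the CA repeat CACACACA. TATAAA was found at 29.4% of members and 23.8% of flanks, and CACACACA at 5.20% and 8.74% (adjusted exact sign test p = 0.187 for each). Against introns of shorter genes 0 of 14 passed and 0 had an unadjusted Fisher's exact p under 0.05; the smallest adjusted p was 0.556. Of the promoter elements, TATAAA was at 30.3% of promoter summits, close to the 29.4% of members, whereas a pair of others was rare at members. The DRE sequence TATCGATA, an element of housekeeping promoters, occurred at 1 member (0.186%) and at 5.64% of promoter summits, and the core promoter word GGTCACAC at 3 members and 4.46% of promoter summits. The TALE word TGACAG was at 6.32% of members and 5.95% of flanks, the homeodomain core TAATTA at 14.1% and 16.9%, and GAGAG at 24.2% and 26.2%.

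Words of 6 bases gave clearer differences. With reverse complements joined, 82 words of all those tested differed between members and flanks (3.94%, exact sign test with Benjamini-Hochberg adjustment), 57 higher at members and 25 lower, and 366 had an unadjusted p under 0.05. AGTGTA led, at 97 members (18%) and 31 flanks (5.76%), a ratio of 3.13 (adjusted exact sign test p = 1.11e-06). ACACTG was at 18.2% and 6.51%, CACTGA at 17.7% and 6.32%, and ACTGAG at 13% and 4.46%. These words overlap one another. AATATT, of A and T alone, was at 32.9% and 18%, and 8 of the 82 called words held no G or C. GTGCAC had the highest ratio of the leading words, 4.15, at 54 members (10%) and 13 flanks (2.42%, adjusted exact sign test p = 1.03e-04). Among the lower words GCAGGA was at 1.86% of members and 8.92% of flanks (adjusted exact sign test p = 5.76e-05). In introns of shorter genes 6.78% of all words were higher at the summit, and these included 33 of the 57. The lower GC content of summits moves with these counts and its part in them was not tested. The count of words was lower in smaller sets of members: 1 word passed with the 211 members among the 3028 strongest peaks, 2 with 1 member per host, and 14 with the members in all 3 top lists.

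The words CACTGA and ACTGAG overlap within CACTGAGA, which was picked after their values were seen, so its counts in members carry no test. It was within 100 bp of 31 members (5.76%, 4.09 to 8.06), in 29 host genes, and in 2 flanks (0.372%). Other classes also had it at their summits. Shares of CACTGA and ACTGAG in introns of shorter genes and at promoters had been counted beside those of members when the word was picked. Shares over all optimal peaks, which include those between genes, had been counted too. The tests in these 3 classes are therefore not independent of that choice. Weaker pooled regions of long introns can lie near members, and how many do was not examined. In introns of shorter genes it was at 43 summits (3.74%) and 12 flanks (exact sign test adjusted over 15 tests p = 6.75e-05), between genes at 40 of 534 summits (7.49%) and 7 flanks (p = 2.03e-06), and at promoters at 69 summits (1.86%) and 16 flanks (p = 4.58e-08). Among the weaker pooled regions of long introns it was at 3.41% of ranks 6057 to 18000 and 2.12% of ranks 18001 to 30000, with 0.620% and 0.840% of flanks (adjusted exact sign test p = 4.58e-08 and 8.70e-04). Members with the word were not strong: their median signal value was 280 and their highest 757, against 303 and 5948 for the rest, though 58.1% and 55.6% lay in all 3 top lists. Repeat sequence marked in the reference covered a median of 26.9% of the windows with the word, against 19.4% for the rest. Its part in the counts of the word was not tested. Over the whole sequence that could hold a member, CACTGAGA occurred 821 times, 346 per Mb within 100 bp of a member and 33.0 per Mb elsewhere.

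The word did not sit at the summit but beside it, and it had a direction. Within 150 bp of member summits there were 48 matches in 45 members. On the left of the summit 25 read CACTGAGA on the plus strand and 3 on the minus strand, and on the right 1 was on the plus strand and 19 on the minus strand. So 44 of 48 (91.7%, 80.4 to 96.7) read toward the summit, at a median distance of 78.5 bp (quartiles 60.2 and 98.5). Of the 45 members 3 had such a match on both sides, those shown above. The other classes gave 54 of 61 (88.5%) in introns of shorter genes, 57 of 62 (91.9%) between genes, 84 of 97 (86.6%) at promoters, 80 of 87 (92.0%) in pooled regions 6057 to 18000 of long introns and 42 of 63 (66.7%, 54.4 to 77.1) in the weakest. Direction and side were noticed in these same peaks and are given without a test.

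**Figure D5:**
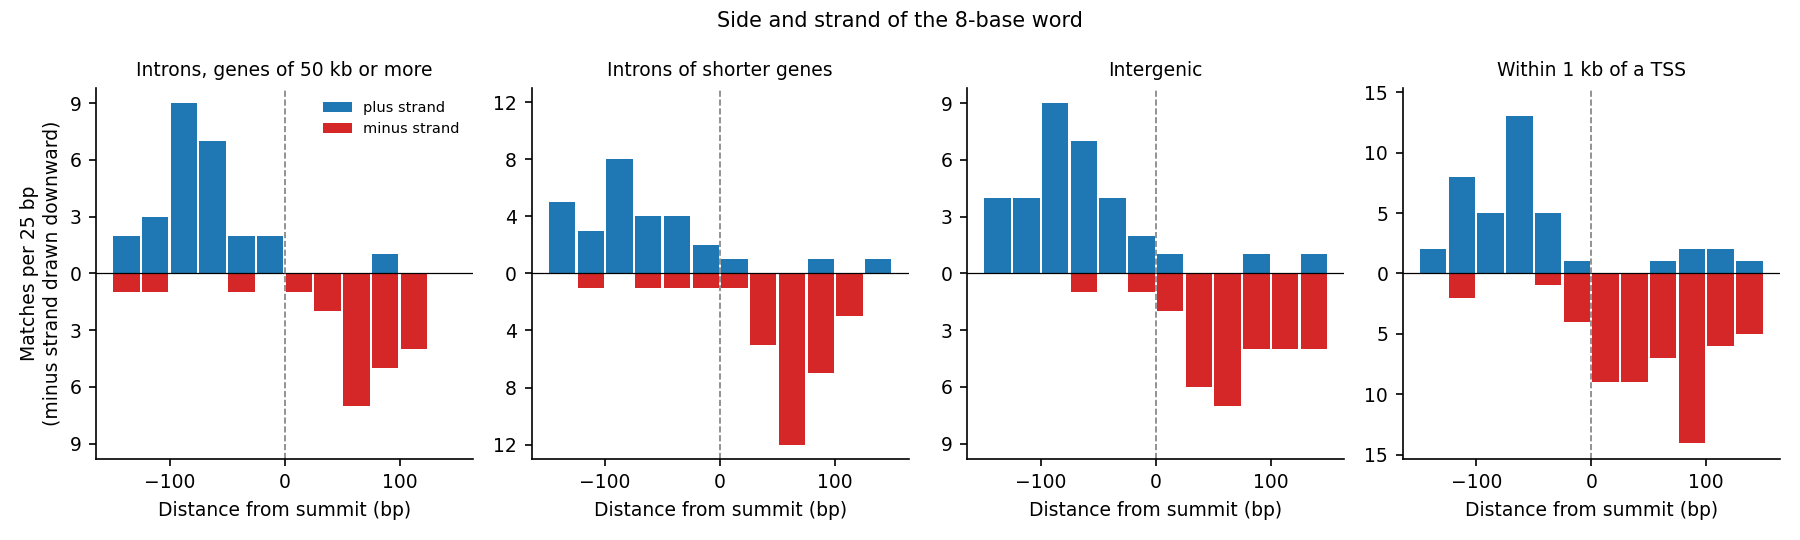
Matches of the 8-base word per 25 bp within 150 bp of the summit, for members and 3 other classes of optimal peaks; plus-strand matches are drawn upward and minus-strand matches downward, and left and right follow the plus strand. In members 25 of 28 matches to the left are on the plus strand and 19 of 20 to the right are on the minus strand.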

How the data were processed

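Caup-eGFP binding was measured by ChIP-seq in 3 replicates of 1 group. The deposited dm6 lists were made by the authors: 30000 regions per replicate and for the pooled alignments, and an optimal set kept by an irreproducible discovery rate step, per the labels and the text notes beside the files. The signal value and the summit offset were deposited by the authors for each region; the scale of the signal is not given, so it served only to rank and describe within a list. Which aligner and peak caller were used, and the threshold of that step, is not given in the sources used here. The optimal set equals the 6056 pooled regions of highest signal. The dm3 lists, the q-values and the control were not used here.

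Summits were placed on the Ensembl release 115 annotation (18164 genes, 13945 protein-coding, 23581 TSSs, transposable element insertions left out) and sequence was read from the RefSeq genome of the same build. Where genes overlapped, the longest protein-coding gene was the host (25 members lay in 2), and introns were numbered in the host transcript that holds the summit. Densities divide by the sequence that could hold a member by annotation, without a filter on repeats or on where reads can be placed. Top lists were the 6056 strongest regions of each replicate. Motifs were sought within 100 bp of a summit and in 1 flank centred 500 bp away on a side drawn with a fixed seed; an exact two-sided sign test compared them, and Fisher's exact test compared classes, with Benjamini-Hochberg adjustment at 0.05. The comparison of hosts with other long genes and the test of GC content were added after seeing the data. The word test was tested on simulated windows of independent bases, with the same base composition at summits and flanks. These held no GC difference, repeats or overlapping windows, so that check does not cover them. Python 3.11.15, numpy 2.4.6, scipy 1.17.1, pandas 2.3.3 and matplotlib 3.10.9 were used.

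The members, the gene lists and the motifs were chosen with earlier results of these data known. Named are the 10 members of highest signal, the 10 hosts with the most members, up to 4 hosts per list by signal, ara, caup and mirr, and the members nearest to each limit. Of 570 names in the lists, 554 matched the annotation. Sequences follow the order of signal (off 1 chromosome arm) or of distance from the palindrome to the summit, and fewer are printed than that rule allows; the word CACTGAGA and its members were chosen after their values were seen. No sequence is printed of members on arm 2R.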

Additional observations from a re-analysis of the deposited data

How the results depend on the processing

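Alternatives changed one choice at a time, except that windows of 200 bp to each side were set together with flanks 800 bp away. The number of members ranged with the limits: 1151 in 472 hosts at 20 kb of span, 159 in 47 hosts at 100 kb, 211 in 109 hosts among the 3028 strongest peaks and 300 members among peaks in all 3 top lists. Without 1 replicate it ran from 328 to 390. Here and below, "without 1 replicate" keeps the optimal peaks that lie in the top lists of the other 2. The replicate left out still took part in the pooled list, so these settings filter on support and do not call peaks anew. Other limits on the TSS distance, exons of coding transcripts, merged peaks and, added after seeing the data, transposable element starts counted as TSSs (522 members) left it within 1.5 times. The share in intron 1 was 35.4% at 20 kb and 55.8% over any transcript. The ratio of densities was 0.525 at 20 kb, 0.292 at 100 kb, 0.387 among the strongest peaks and, added after seeing the data, 0.499 without Myo81F and 0.565 without the 10 genes of 200 kb or more, always under 1 in the alternatives run. The median signal was 465 among the strongest peaks, 383 in peaks of all 3 top lists, and 344 to 373 without 1 replicate. The share in all 3 top lists was 93.5% with lists of 12112 regions, 24.2% with 3028, and 61.0 to 72.5% over the other 2 replicates alone. Added after seeing the data, the difference in that share from shorter genes passed at 500 bp from a TSS (-4.80 points, Fisher's exact p = 0.0482) and at 20 kb (-7.24 points, Fisher's exact p = 0.00487) and not at 2000 bp (-2.71 points, Fisher's exact p = 0.366) or 100 kb (-6.95 points, Fisher's exact p = 0.0909). Against the flanks 2 motifs passed with windows of 200 bp and flanks 800 bp away, 2 with 50 bp, and 1 each with flanks 1000 bp away, with the members in all 3 top lists, with the strongest peaks and with 1 member per host, and 1 to 2 without 1 replicate. The palindrome's ratio was 1.5, 1.86, 2.12, 2.21 and 2.58 in those settings other than 50 bp, each past the threshold. Without 1 replicate it was 1.90 to 2.11. With the flank on the other side it was 1.51 and with 50 bp 1.39, neither past the threshold. CACACACA turned to 1.64 with the windows of 200 bp and flanks 800 bp away, and the cause was not tested. The 6-base words numbered 28 with windows of 200 bp and flanks 800 bp away, 27 with 50 bp, 14 with the members in all 3 top lists, 1 with the strongest peaks, 2 with 1 member per host, and 13 to 39 without 1 replicate. The excess of promoter summits at hosts (45.6 points) stayed between 27.9 and 46.8 points in 7 alternatives chosen after seeing the data. No comparison between groups, paired or not, was possible because there is 1 group. The sign tests pair each summit with its own flank. With no read counts, depth sets no limit that can be stated, and a summit missing from the optimal set may still be bound.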
